A study of Mus musculus with 8 samples.

Results

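The BCL2 family of apoptosis genes was examined in the RNA of primary murine cardiac fibroblasts, the matrix-producing cells of the heart, cultured from mouse hearts. Its 10 members were taken by gene symbol from the 22274 genes of the deposited table: the anti-apoptotic genes Bcl2, Bcl2l1 and Mcl1, the effector genes Bax and Bak1, and the BH3-only genes Bid, Bad, Bcl2l11, Pmaip1 and Bbc3. The choice by symbol uses no measured value, though it was made with earlier results of these data known. The study asked how overexpression of IRF7, a transcription factor of the interferon response, changes the transcriptome of fibroblasts. There were 8 libraries, and all of these cells received TGF-β, the cytokine that turns fibroblasts into contractile myofibroblasts, at 5 ng/ml for 24 h. The 4 libraries labelled GFP carried the control virus, which the study's text calls an empty vector (Ad-EV), and the 4 labelled OEIRF7 carried a virus encoding FLAG-tagged IRF7 (Ad-FLAG-IRF7). All groups thus share a virus and TGF-β. Which mice or cultures gave which library is not stated, so p-values measure the spread between these libraries, which may be technical.

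Proteins of the BCL2 family decide whether the outer mitochondrial membrane is opened and cytochrome c is released to start the caspase cascade. Anti-apoptotic members bind and hold the others, the effectors BAX and BAK form the pores, and BH3-only proteins sense damage or loss of survival signals and either engage the effectors or occupy the anti-apoptotic members. Myofibroblasts are removed by apoptosis when a wound resolves, and the balance of these proteins is known to set how readily they die. Much of the control lies in protein cleavage, phosphorylation and turnover, which RNA does not show.

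Every member was expressed, and 7 of the 10 differed between the groups, as did 58.9% of all genes tested. None of the members changed by as much as 2-fold. Bcl2 moved most and was lower in the libraries labelled OEIRF7 by 44.0% (decreased by 0.84 on the log2 scale), whereas its anti-apoptotic paralogs Bcl2l1 and Mcl1 did not pass the test. The effectors went in opposite directions, with Bax lower at 0.83-fold and Bak1 higher at 1.22-fold. Among the BH3-only genes, Pmaip1, Bid and Bcl2l11 were higher at 1.39-fold, 1.28-fold and 1.26-fold, Bbc3 was lower at 0.758-fold, and Bad did not pass. Mouse Irf7 itself was lower in the libraries labelled OEIRF7, so directions are those between the labels. In bulk RNA, fewer cells that express a gene and less of its RNA per cell cannot be told apart for any member.

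Fold changes and adjusted p-values came from edgeR's quasi-likelihood test on the deposited read counts, with Benjamini-Hochberg adjustment over the 13533 genes that passed its filter on low counts, and a gene was called at an adjusted p under 0.05. All 10 members passed that filter, the lowest being Bbc3 at means of 7.01 and 5.32 CPM (counts divided by the library's TMM-scaled size). Of all genes tested, 58.9% were called, so 7 of 10 members has to be read against a transcriptome in which most genes were called, and the share is no result about the family. Higher in OEIRF7 were 4 members against 29.0% of all genes tested, and lower were 3 members against 29.9%. The adjusted p and a log2 fold change past 1 together were met by 8.56% of genes and by 0 members. The median size of the log2 difference was 0.31 over the members, 0.25 over all genes tested and 0.4 over all genes called. The signed median was 0.03 for the members and 0.0 for all genes tested. In 7 members the 4 libraries of one group did not overlap the 4 of the other, which held for 53.8% of all genes tested.

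**Figure D1:**
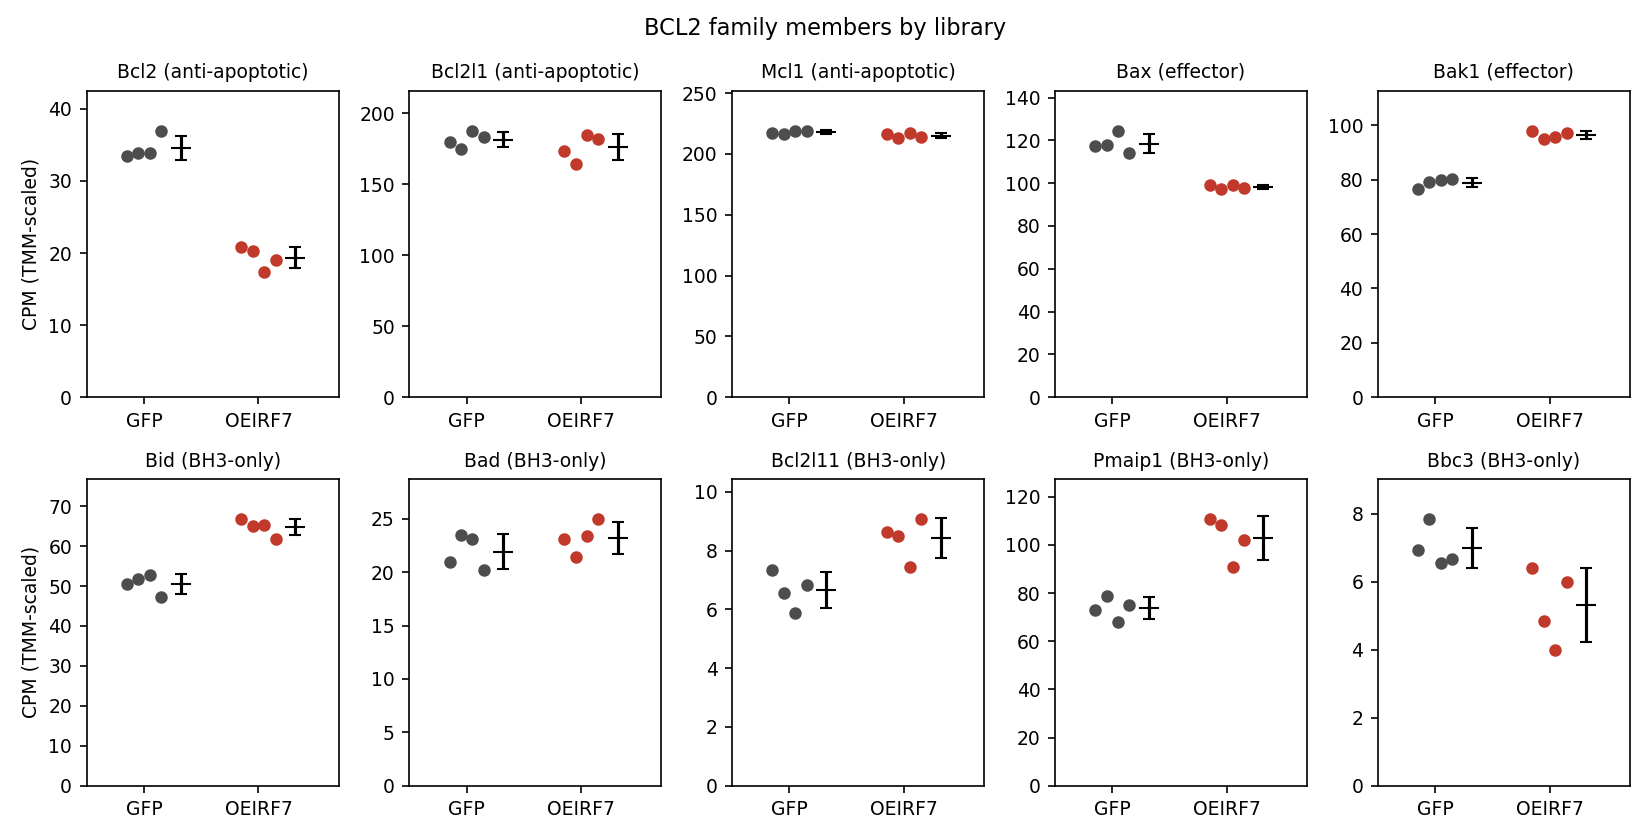
Normalised read counts (CPM, scaled by TMM, axes from 0) of the 10 members in each library, points from left to right being replicates 1 to 4 of GFP (grey) and of OEIRF7 (red), with the mean and SD (n = 4) as bars. The groups are apart in 7 members, in proportion by the widest margin for Bcl2 (33.5 CPM in the lowest GFP library against 20.8 CPM in the highest OEIRF7 library) and barely in Bcl2l11 and Bbc3, and they overlap in Bcl2l1, Mcl1 and Bad.

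Total counts lay between 24454801 and 28658826 per library. Irf7 was examined first, as the gene the study manipulated. Its counts were 2861, 3680, 2272 and 3291 in GFP and 385, 421, 380 and 404 in OEIRF7, a log2 fold change of -2.96 (SE 0.121, edgeR adjusted p = 7.7e-11). The study's reagent list names the adenovirus for human IRF7, whose reads these mouse gene counts do not measure, while the design text deposited beside the data speaks of an adeno-associated virus, and the files do not settle which was used. Fibroblast markers were abundant in all libraries, at a summed 13384.9 to 14100.9 CPM in GFP and 11784.6 to 12377.6 CPM in OEIRF7. Of these 8 markers 5 were lower. The largest fall, at a log2 fold change of -1.33, was in Tcf21, which the paper names as a label of quiescent cardiac fibroblasts. Col3a1 was at -0.53 and Postn at -0.38, while 1 marker was higher, Pdgfra at 0.25, and 2 were not past the test. Acta2, the smooth muscle actin gene of myofibroblasts, was also lower in OEIRF7 (-1.83, edgeR adjusted p = 1.2e-12). Of 8 cardiomyocyte markers only Tnnt2 passed the filter, and the list summed to 13.6 CPM or less in any library, with Myh6, Myl2 and Nppa at or near 0. Macrophage and leukocyte markers rose in 4 of 6 genes, from a summed 263.8 to 313.8 CPM to 334.9 to 370.7 CPM. Endothelial markers were higher in 3 and lower in 1 of 6, with sums of 202.5 to 215.9 CPM and 206.4 to 230.6 CPM. Mural markers were higher in 2 and lower in 1 of the 4 tested of 5, with sums of 65.7 to 72.3 CPM and 77.3 to 97.3 CPM, and epicardial markers higher in 2 and lower in 2 of 5, with sums of 131.4 to 143.7 CPM and 105.7 to 111.5 CPM. The 13 mitochondrially encoded genes took 3.68% to 3.88% of the counts in GFP and 2.87% to 3.11% in OEIRF7. These values moved with the groups, and their part in the differences of the BCL2 family was not tested.

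Promoter sequence was read for the members because the manipulated gene encodes a DNA-binding factor and because Bax, Pmaip1 and Bbc3 are known targets of p53 while Bcl2l1 is a known target of NF-κB. RefSeq windows on GRCm38.p6, from 250 bases before to 50 bases after each annotated start, were available for 9 members in 15 windows, and Pmaip1 was not among those read. Both strands were searched for the IRF element GAAANNGAAA, the E-box CACGTG, a p53 half-site and an NF-κB site. The IRF element was in 0 of the 15 windows and in 3.44% of 32851 windows of all genes, which says only that these letters are not in these windows. The E-box was in 2 of 15 windows, against 7.15% of all windows, the p53 half-site in 1 of 15, against 8.36%, and the NF-κB site in 2 of 15, against 4.51%. The stretch just before the start of Bcl2, the member that moved most, lies on the minus strand of chr1:106714291-106714390 and held none of the 4 motifs, and the window around it was 76.0% G or C. It is shown with the matches found before a start, 5′ to 3′ on the strand of the gene, with each motif in capitals.
Bcl2 before the start: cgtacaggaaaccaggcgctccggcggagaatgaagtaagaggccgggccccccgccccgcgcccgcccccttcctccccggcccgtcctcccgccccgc
Bax E-box, chr7:45466899-45466927, minus strand: ctgcagcgagcgatgatgatCACGTGact
Bax p53 half-site, chr7:45467070-45467119, minus strand: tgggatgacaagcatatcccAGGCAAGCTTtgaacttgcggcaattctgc
Bbc3 E-box, chr7:16310347-16310392, plus strand: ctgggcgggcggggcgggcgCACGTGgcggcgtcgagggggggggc
Bbc3 NF-κB site, chr7:16309426-16309475, plus strand: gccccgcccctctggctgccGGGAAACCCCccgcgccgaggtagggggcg
Bcl2l1 NF-κB site, chr2:152830930-152830967, minus strand: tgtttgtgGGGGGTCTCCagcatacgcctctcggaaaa
The Bbc3 NF-κB letters match on both strands in overlapping positions. A match is a stretch of letters and not a shown binding site.

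Bcl2 (ENSMUSG00000057329), which encodes the founding anti-apoptotic protein of the outer mitochondrial membrane, is a minus-strand gene of chromosome 1 (106538178 to 106714274 in GRCm38, the build used for all positions). Its read counts were 898, 847, 838 and 969 in GFP replicates 1 to 4 and 537, 588, 442 and 468 in OEIRF7 replicates 1 to 4. In CPM these were 33.5, 33.9, 33.9 and 37.0 against 20.8, 20.3, 17.4 and 19.0. Every library labelled OEIRF7 was below every library labelled GFP, and GFP replicate 4 stood above the other GFP libraries, which lay close together. The mean went from 34.6 ± 1.59 CPM (SD, n = 4) to 19.4 ± 1.54 CPM (SD, n = 4). The log2 fold change was -0.84 (SE 0.0627, 95% interval -0.97 to -0.7), with an edgeR adjusted p of 3.5e-08. Of all genes tested, 11.8% changed by more. An antisense gene, D630008O14Rik, covers 6.09% of the exonic bases of Bcl2 and was not among the counted genes. The strand setting of the counting is not given in the sources used here.

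Bcl2l1 (ENSMUSG00000007659) encodes BCL-xL, and by alternative splicing also a short pro-apoptotic form that gene counts do not separate. It lies on the minus strand of chromosome 2 from 152780668 to 152831728, and had counts of 4821, 4363, 4636 and 4807 in GFP and 4465, 4766, 4709 and 4482 in OEIRF7. The groups overlapped, at 181.5 ± 5.5 CPM and 176.0 ± 9.27 CPM (SD, n = 4 each). Its log2 fold change of -0.04 (SE 0.0408, 95% interval -0.13 to 0.04) did not pass, with an edgeR adjusted p of 0.37. This interval did not meet that of Bcl2.

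Mcl1 (ENSMUSG00000038612), which encodes a short-lived anti-apoptotic protein, lies on the plus strand of chromosome 3 from 95658788 to 95663176. Its counts were 5820, 5398, 5407 and 5750 in GFP and 5574, 6186, 5542 and 5271 in OEIRF7, which in CPM were 217.2, 216.3, 219.0 and 219.3 against 216.1, 213.2, 217.6 and 213.7. The groups overlapped, and Mcl1 varied least of the members in GFP, with a coefficient of variation of 0.673% where counting error alone gives 1.34%. The means were 217.9 ± 1.47 CPM and 215.2 ± 2.05 CPM (SD, n = 4 each), a log2 fold change of -0.02 (SE 0.029, 95% interval -0.08 to 0.04, edgeR adjusted p = 0.6). The sign of this difference was not stable: it was 0.01 without scaling beyond library size and 0.05 with limma on log2(FPKM + 1), past the threshold in neither. Permuting the groups in an exact two-sided test on log2 CPM gave p = 0.11 for Mcl1 and p = 0.37 for Bcl2l1. For Bcl2, as for each of the other 6 members called, the exact test gave 0.029, the smallest p that 4 libraries against 4 allow.

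**Figure D2:**
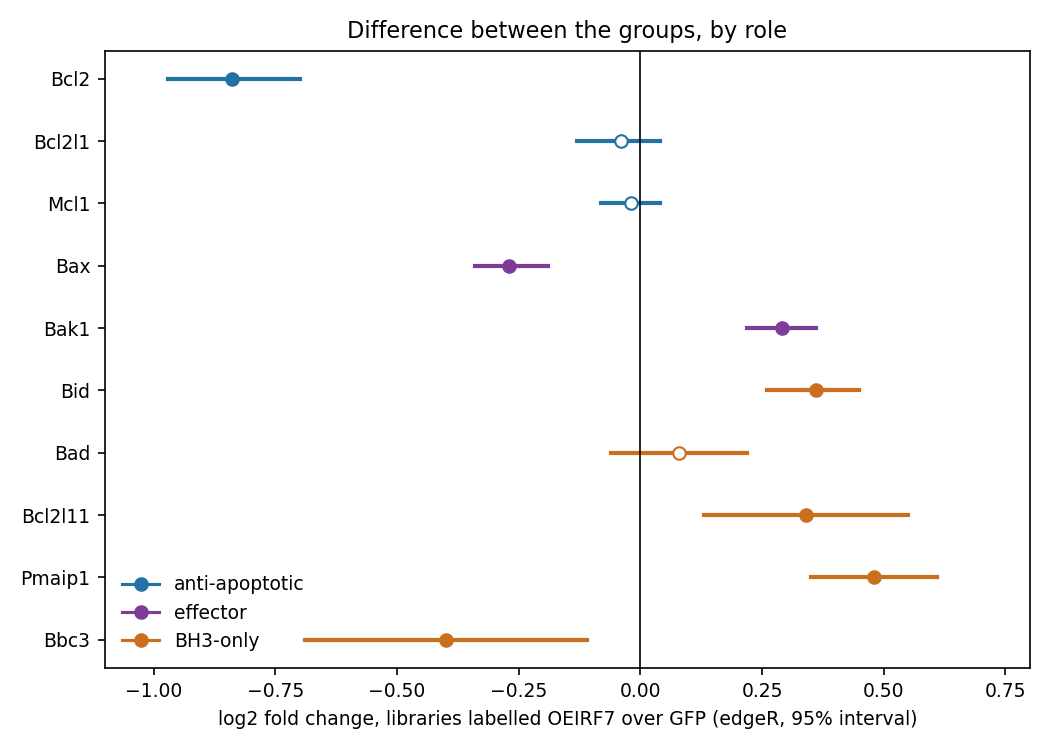
Log2 fold change of each member, libraries labelled OEIRF7 over GFP, with the 95% interval from edgeR (n = 4 libraries per group). Filled points are called at an adjusted p under 0.05 and open points are not, and colours give the role. Bcl2 lies farthest from 0 at -0.84, and each role with more than 1 called gene holds differences of both signs.

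Bax (ENSMUSG00000003873), the effector that moves from the cytosol to mitochondria when activated, lies on the minus strand of chromosome 7 from 45461697 to 45466898. Its counts were 3140, 2944, 3075 and 2991 in GFP and 2558, 2826, 2523 and 2412 in OEIRF7, or 117.2, 117.9, 124.6 and 114.1 CPM against 99.2, 97.4, 99.1 and 97.8 CPM. The groups were apart by 114.1 against 99.2 CPM, and the OEIRF7 libraries lay closer together than the GFP libraries. The mean fell from 118.4 ± 4.41 CPM to 98.4 ± 0.886 CPM (SD, n = 4 each), a log2 fold change of -0.27 (SE 0.0355, 95% interval -0.34 to -0.19, edgeR adjusted p = 1.3e-05). A gene model on the same strand, Gm45808, covers 12.2% of the exonic bases of Bax and had 0 to 11 counts per library.

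Bak1 (ENSMUSG00000057789), the effector that resides in the outer mitochondrial membrane, lies on the minus strand of chromosome 17 from 27019810 to 27029009. Its counts were 2048, 1971, 1975 and 2105 in GFP and 2531, 2753, 2440 and 2399 in OEIRF7, or 76.4, 79.0, 80.0 and 80.3 CPM against 98.1, 94.9, 95.8 and 97.3 CPM. All OEIRF7 libraries were above all GFP libraries, with 94.9 against 80.3 CPM between the nearest. The mean rose from 78.9 ± 1.75 CPM to 96.5 ± 1.45 CPM (SD, n = 4 each), a log2 fold change of 0.29 (SE 0.034, 95% interval 0.22 to 0.36, edgeR adjusted p = 3.7e-06). Separate entries named Ggnbp1 overlap Bak1 on the opposite strand and cover 7.35% and 18.2% of its exonic bases. Counts were read for only 1 of them, at 8 to 42 per library (edgeR adjusted p = 0.16). The differences of Bax and Bak1 were thus of like size and opposite sign, and their 95% intervals did not meet.

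Among the BH3-only genes, Pmaip1 (ENSMUSG00000024521) had the largest rise. It encodes NOXA, which binds MCL1 and is a known p53 target, and lies on the plus strand of chromosome 18 from 66458533 to 66465565. Counts were 1958, 1968, 1682 and 1971 in GFP and 2859, 3142, 2310 and 2513 in OEIRF7, or 73.1, 78.8, 68.1 and 75.2 CPM against 110.8, 108.3, 90.7 and 101.9 CPM. The groups did not overlap, and replicate 3 was the lowest library in each. From 73.8 ± 4.47 CPM the mean went to 102.9 ± 8.98 CPM (SD, n = 4 each), a log2 fold change of 0.48 (SE 0.0598, 95% interval 0.35 to 0.61, edgeR adjusted p = 7.1e-06). Its coefficient of variation in OEIRF7 was 8.72%, where counting error gives 1.92%, so the libraries varied by more than counting error.

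Bid (ENSMUSG00000004446), which caspase-8 cleaves to carry the death receptor signal to mitochondria, lies on the minus strand of chromosome 6 from 120891930 to 120916853. Its counts were 1350, 1292, 1302 and 1237 in GFP and 1723, 1885, 1661 and 1526 in OEIRF7, or 50.4, 51.8, 52.7 and 47.2 CPM against 66.8, 65.0, 65.2 and 61.9 CPM. Replicate 4 was the lowest library in each group, and the groups were apart by 61.9 against 52.7 CPM. The mean rose from 50.5 ± 2.43 CPM to 64.7 ± 2.06 CPM (SD, n = 4 each), a log2 fold change of 0.36 (SE 0.0437, 95% interval 0.26 to 0.45, edgeR adjusted p = 5.8e-06). Bcl2l13 lies on the opposite strand and covers 17.7% of the exonic bases of Bid. It had a log2 fold change of 0.22 (edgeR adjusted p = 0.00033), so without the strand setting reads of Bid and Bcl2l13 cannot be told apart where they overlap.

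Bcl2l11 (ENSMUSG00000027381) encodes BIM, which binds all anti-apoptotic members and is induced by FOXO factors on loss of growth factors, and lies on the plus strand of chromosome 2 from 128126038 to 128162547. It was a low member, with counts of 197, 164, 145 and 179 in GFP and 223, 247, 190 and 224 in OEIRF7. In CPM these were 7.35, 6.57, 5.87 and 6.83 against 8.64, 8.51, 7.46 and 9.08. The groups only just parted, with 7.46 CPM in the lowest OEIRF7 library and 7.35 CPM in the highest GFP library. The mean rose from 6.66 ± 0.614 CPM to 8.43 ± 0.688 CPM (SD, n = 4 each), a log2 fold change of 0.34 (SE 0.0971, 95% interval 0.13 to 0.55, edgeR adjusted p = 0.0077).

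Bbc3 (ENSMUSG00000002083) encodes PUMA, another p53 target that binds all anti-apoptotic members, and lies on the plus strand of chromosome 7 from 16308393 to 16318205. Its counts were 186, 196, 162 and 175 in GFP and 165, 141, 102 and 148 in OEIRF7. The nearest libraries were 6.56 CPM in GFP and 6.4 CPM in OEIRF7, and OEIRF7 replicate 3 was the lowest of all. The mean fell from 7.01 ± 0.585 CPM to 5.32 ± 1.09 CPM (SD, n = 4 each), a log2 fold change of -0.4 (SE 0.134, 95% interval -0.69 to -0.11, edgeR adjusted p = 0.019). This was the least secure of the 7 calls. Without GFP replicate 2 the log2 fold change was -0.34 and without OEIRF7 replicate 2 it was -0.36, with an edgeR adjusted p of 0.055 in both. On log2(FPKM + 1), limma gave -0.34 with an adjusted p of 0.066. Pmaip1 and Bbc3, both known p53 targets of the BH3-only kind, thus differed between the groups in opposite directions.

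Bad (ENSMUSG00000024959), whose protein binds BCL2 and BCL-xL when survival kinases do not phosphorylate it, lies on the plus strand of chromosome 19 from 6941861 to 6951899. Its counts were 564, 587, 569 and 530 in GFP and 597, 621, 596 and 617 in OEIRF7. The groups overlapped, at 22.0 ± 1.58 CPM and 23.2 ± 1.48 CPM (SD, n = 4 each). The log2 fold change was 0.08 (SE 0.0666, 95% interval -0.06 to 0.22, edgeR adjusted p = 0.31), with an exact permutation p of 0.26. On log2(FPKM + 1) the difference was 0.21 with a limma adjusted p of 0.017, a setting in which the value, the test and the filter all differ from those of the edgeR fit. Gpr137 lies on the opposite strand, covers 20.5% of the exonic bases of Bad and was lower in OEIRF7 (log2 fold change -0.41, edgeR adjusted p = 9.4e-05).

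Replicate 3 of OEIRF7 was the lowest OEIRF7 library for Bcl2, Bcl2l11, Pmaip1 and Bbc3 and the highest for Bcl2l1 and Mcl1. Without it, each of the 7 calls held, that of Bbc3 only just. Its log2 fold change was then -0.29, with an edgeR adjusted p of 0.049.

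Levels of different members were compared per gene length, in FPKM (fragments scaled to transcript length and to the library's mapped fragments). Bax was the most abundant member in both groups, at 125.7 ± 4.42 FPKM in GFP and 106.8 ± 0.504 FPKM in OEIRF7 (SD, n = 4 each). Bcl2l1 followed at 78.0 ± 2.74 and 75.9 ± 3.42 FPKM, then Mcl1 at 63.9 ± 1.3 and 66.0 ± 1.08 FPKM, Bak1 at 47.2 ± 2.45 and 59.6 ± 2.13 FPKM and Pmaip1 at 26.8 ± 1.62 and 38.3 ± 3.55 FPKM. Of the 3 anti-apoptotic members, Bcl2, the one that was called, was thus the least abundant per length. Bid had 22.9 ± 1.16 FPKM in GFP and values of 28.5 to 31.3 FPKM in OEIRF7, and Bad had 20.8 ± 1.11 and 24.4 ± 2.26 FPKM. Bcl2 stood at 4.82 ± 0.23 and 2.75 ± 0.211 FPKM, Bbc3 at 4.37 ± 0.951 and 3.23 ± 0.726 FPKM, and Bcl2l11 at 1.43 ± 0.124 and 1.96 ± 0.259 FPKM. Neighbours in this order had overlapping values only for Bid and Bad and for Bcl2 and Bbc3 in GFP, and only for Bbc3 and Bcl2 in OEIRF7. The order was the same in both groups but for Bcl2 and Bbc3, which changed places while their values overlapped.

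**Figure D3:**
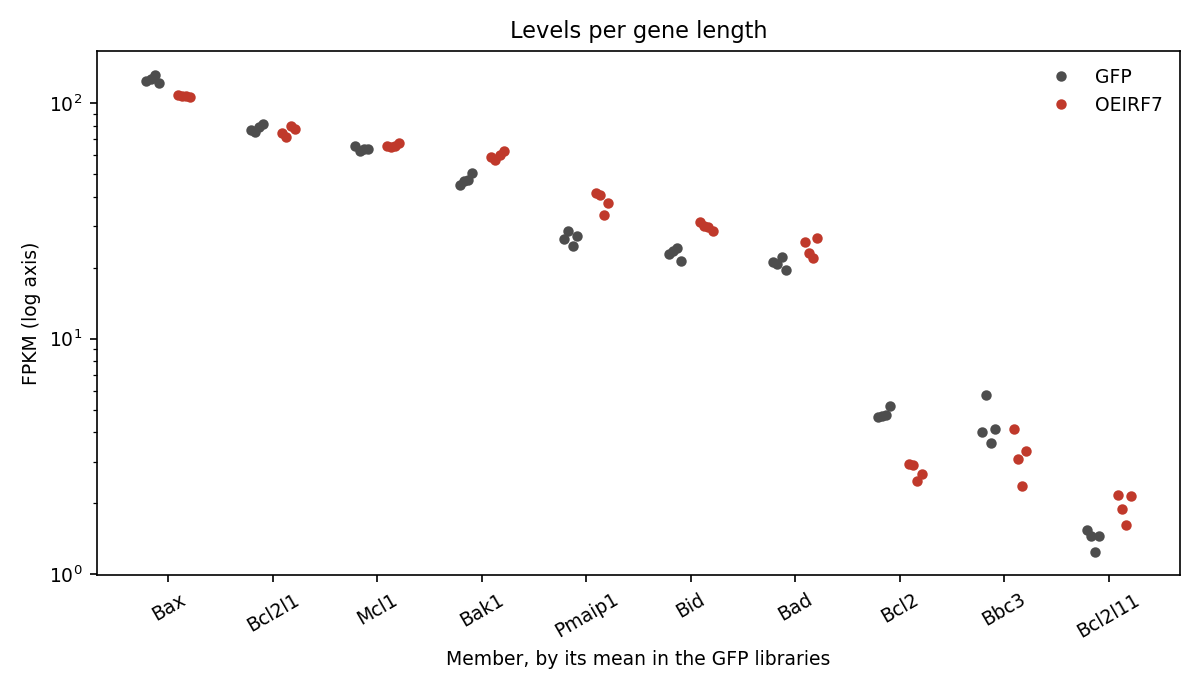
FPKM of each member in each library on a log axis, GFP in grey and OEIRF7 in red, with members ordered by their mean in GFP (n = 4 libraries per group). Bax is highest (125.7 FPKM in GFP), a gap separates Bad (20.8 FPKM) from Bcl2 (4.82 FPKM), and Bcl2l11 is lowest (1.43 FPKM).

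Within each library, ratios of FPKM set members with opposing roles beside each other. They were computed from the same libraries as the differences above and carry no test of their own. The ratio of Bax to Bcl2 was 26.6, 26.7, 27.8 and 23.5 in GFP and 36.7, 36.9, 43.0 and 39.8 in OEIRF7, a mean of 26.2 ± 1.87 against 39.1 ± 2.96 (SD, n = 4 each). It was higher although Bax itself was lower, since Bcl2 was lower by more. Set against Bcl2l1, the ratio of Bax went the other way, from 1.61 ± 0.0855 to 1.41 ± 0.068. The ratio of Bcl2l11 to Mcl1 went from 0.0223 ± 0.00179 to 0.0296 ± 0.00368. The groups did not overlap in any of these 3 ratios. For Bax to Bcl2l1 they only just parted, as the lowest GFP and the highest OEIRF7 library both rounded to 1.49.

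Other ratios were chosen after the values were seen. Pmaip1 to Mcl1, the pair in which NOXA is known to bind MCL1, went from 0.42 ± 0.0298 to 0.58 ± 0.0554 (SD, n = 4 each). Bak1 to Bax went from 0.376 ± 0.0279 to 0.558 ± 0.0218, and Bak1 to Mcl1 from 0.739 ± 0.048 to 0.903 ± 0.0197. Bcl2 to Bcl2l1 went from 0.0618 ± 0.00157 to 0.0363 ± 0.0043. None of these overlapped between the groups either. For Bak1 to Bax this follows from the FPKM of Bak1 and Bax being apart in opposite directions. The others set a called member over Mcl1 or Bcl2l1, which were not called, so they largely restate the single genes.

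Summed by role, the anti-apoptotic FPKM were 146.7 ± 2.99 in GFP and 144.7 ± 3.79 in OEIRF7 (SD, n = 4 each), and overlapped. The effector sums were 172.9 ± 4.18 and 166.4 ± 1.84 and only met, at 168.7 FPKM in the lowest GFP and the highest OEIRF7 library. The BH3-only sum was 75.8, 80.1, 75.9 and 73.7 in GFP and 104.7, 98.6, 89.3 and 98.5 in OEIRF7, without overlap, at 1.28-fold. BH3-only transcripts thus took 19.3% ± 0.714 of the family's summed FPKM in GFP and 23.9% ± 1.32 in OEIRF7. Pmaip1 and Bid, the most abundant BH3-only genes, rose most in FPKM, so the sum is mainly theirs. Bad also rose in FPKM, although its counts did not pass the test, and Bbc3 fell. The effectors took 43.7% ± 0.575 and 40.7% ± 0.454, and the anti-apoptotic genes 37.0% ± 0.824 and 35.4% ± 0.92. The shares of the BH3-only genes and of the effectors did not overlap between the groups, and the anti-apoptotic share did. The ratio of effector plus BH3-only to anti-apoptotic FPKM was 1.7 ± 0.0602 and 1.83 ± 0.0727, and the groups overlapped.

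**Figure D4:**
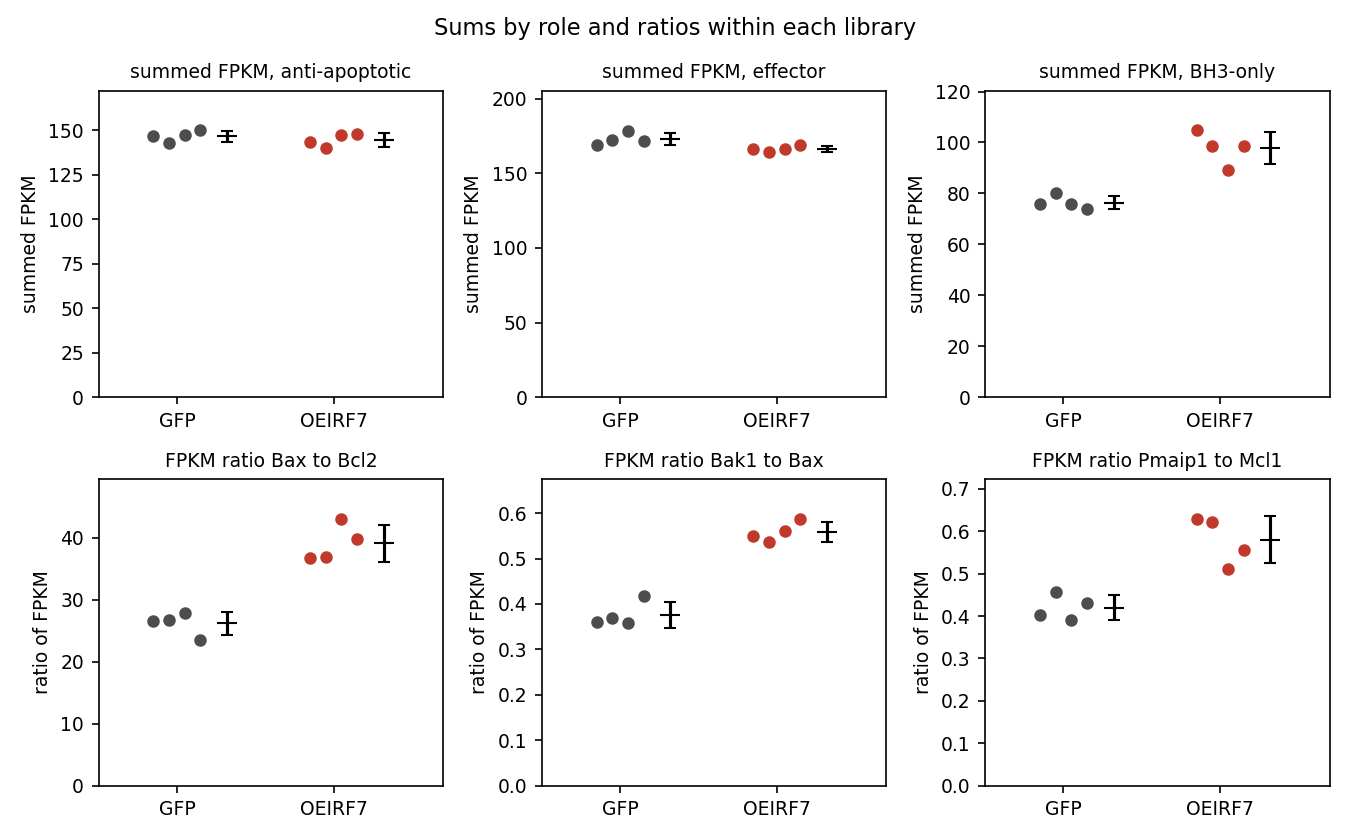
FPKM summed by role (upper row) and 3 ratios of FPKM (lower row) in each library, with the mean and SD as bars (n = 4 libraries per group, axes from 0). The BH3-only sum is apart between the groups (76.4 against 97.8 FPKM), and the ratio of Bax to Bcl2 goes from 26.2 to 39.1. The anti-apoptotic sums overlap, and the effector sums only meet, at 168.7 FPKM.

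The other genes of the family were read from lists set for this purpose and are described by counts beside the 58.9% called over all genes tested. Of the other anti-apoptotic genes, Bcl2l2, which encodes BCL-w, fell from 103.4 ± 2.63 to 83.8 ± 5.67 CPM (log2 fold change -0.3, edgeR adjusted p = 4.3e-05). The 3 mouse copies of the NF-κB target Bcl2a1 were higher. Bcl2a1d went from 0.804 ± 0.215 to 4.46 ± 0.681 CPM (log2 fold change 2.46, edgeR adjusted p = 9.4e-08), Bcl2a1a from 0.38 ± 0.0313 to 1.68 ± 0.208 CPM (2.13) and Bcl2a1b from 2.32 ± 0.489 to 3.84 ± 0.711 CPM (0.73). These copies are nearly identical, so how reads were split between them is uncertain, and Bcl2l10 had no count in any library. The direction in these copies was opposite to that of Bcl2. Macrophage and leukocyte markers were also higher in 4 of 6 genes, with 2 not past the test, and their part in the rise of these copies was not tested.

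Of the effector and BCL2-like genes, the BAX relative Bok rose from 11.7 ± 1.9 to 21.9 ± 1.74 CPM (log2 fold change 0.91, edgeR adjusted p = 2e-06). The low gene Bcl2l15 rose from 0.389 ± 0.0985 to 4.44 ± 0.992 CPM (3.49). Bcl2l13, a mitophagy receptor that shares exonic positions with Bid, was higher by 0.22 on the log2 scale, Bcl2l12 was lower (-0.52, edgeR adjusted p = 0.023), and Bcl2l14 did not pass the filter. Of the other BH3-only and related genes, Bmf, whose protein responds to loss of attachment, fell from 2.12 ± 0.385 to 0.974 ± 0.352 CPM (-1.12, edgeR adjusted p = 0.0017). The mitophagy receptors Bnip3 and Bnip3l rose by 1.08 and 0.24 on the log2 scale, Becn1 had a log2 fold change of 0.07 (edgeR adjusted p = 0.085), and Bik and Hrk did not pass the filter.

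Downstream of mitochondria, 2 of 9 genes of the apoptosome and mitochondrial release list were higher, 3 lower and 4 not past the test (median log2 fold change -0.03). Apaf1, the scaffold that cytochrome c activates, fell by 0.49 on the log2 scale (edgeR adjusted p = 4.2e-07), Htra2 and the channel gene Vdac2 were at -0.29 and -0.14, and Diablo, whose product relieves caspase inhibition, rose by 0.24. Of 9 caspases, 2 were higher, 4 lower and 3 not past (median -0.14), with the initiator Casp9 at -0.6, Casp12 at -0.93 and the inflammatory Casp4 at 1.18. Of 5 inhibitors of apoptosis, 2 were higher (Birc3 at 1.41, Birc2 at 0.4), 2 lower (Birc5 at -0.96, Xiap at -0.6) and 1 not past (median -0.03). Of 8 tested genes of the death receptor arm, which signals to Bid through caspase-8, 1 was higher, 2 lower and 5 not past (median 0.03). There, Cflar, which encodes the caspase-8 inhibitor cFLIP, rose from 217.6 ± 8.77 to 407.8 ± 48.4 CPM (0.91, edgeR adjusted p = 2e-08), and Fas and Tnfrsf10b were at -1.09 and -0.36.

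Upstream, p53 and its targets outside the family also held both directions. Of 11 genes, 3 were higher, 6 lower and 2 not past (median -0.19). Trp53 itself rose from 85.1 ± 4.33 to 111.9 ± 3.69 CPM (log2 fold change 0.39, edgeR adjusted p = 1.4e-06) and Mdm2 by 0.4, while Trp53inp1 fell from 256.4 ± 14.9 to 86.6 ± 5.05 CPM (-1.57), Eda2r was at -0.71 and Perp at -0.67. Of 10 tested transcription factors known to act on family genes, 4 were higher, 3 lower and 3 not past (median 0.06), with Irf1 at 0.54, Rela at 0.36 and Nfkb1 at 0.28. Besides Irf7, the 2 lower ones were Stat3 at -0.18 and Foxo3 at -0.13. Foxo1, which with Foxo3 is known to induce Bcl2l11, was at 0.05 (edgeR adjusted p = 0.58). Of 8 genes that set the turnover of MCL1 and BIM proteins, 1 was higher, 2 lower and 5 not past (median 0.03), with the MCL1 deubiquitinase Usp9x at -0.52 and the kinase gene Gsk3b at -0.57. The share called, 37.5%, was below the 58.9% of all genes tested and the same as in the death receptor arm. With 3 of 8 genes called in each, it is no result about either list. In the table's own KEGG column, chosen after the values were seen, the apoptosis pathway held all 10 members and had 52 genes higher, 44 lower and 33 not past of 129 tested (74.4% called, median 0.06). The p53 signaling pathway held 6 members, all but Mcl1, Bak1, Bad and Bcl2l11, and had 14 genes higher, 40 lower and 17 not past of 71 tested (76.1% called, median -0.17).

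**Figure D5:**
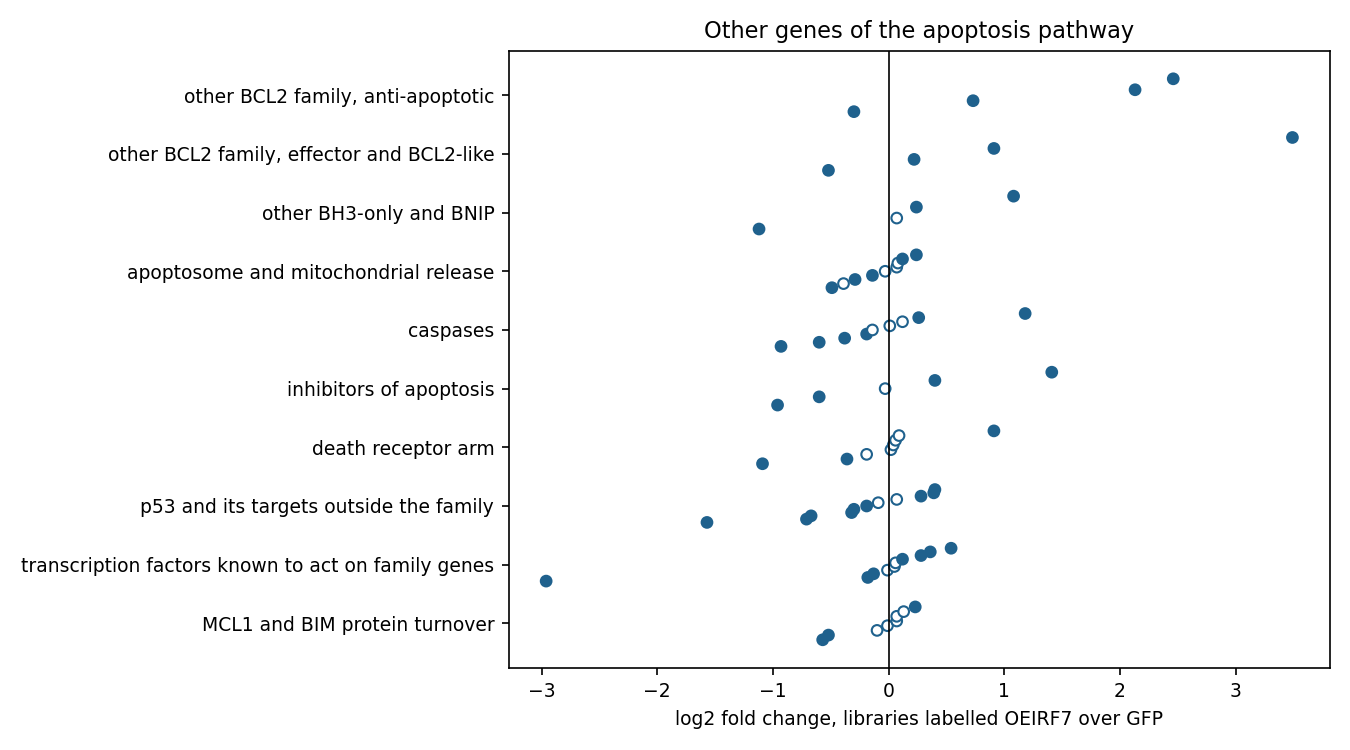
Log2 fold change of the genes tested in 10 lists around the BCL2 members, libraries labelled OEIRF7 over GFP, 1 point per gene, filled where called at an edgeR adjusted p under 0.05. Lists hold genes on both sides of 0, from Irf7, in the list of transcription factors, at -2.96 to Bcl2l15 at 3.49.

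Genes whose pattern over the 8 libraries was most like that of Bcl2 were sought by Pearson's r of log2 CPM. The highest were Mum1l1 (0.998), Zfp365 (0.998), Igdcc4 (0.997), Dock1 (0.997) and Stau1 (0.996). All 5 were lower in OEIRF7, by log2 fold changes of -1.13, -0.79, -0.64, -0.23 and -0.24. The 8 libraries fall into the same 2 groups for every gene, and 4482 genes (33.1% of those tested) had an r above 0.9 in size to Bcl2, so a high r to Bcl2 was common.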

How the data were processed

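Reads had been trimmed by the authors and aligned to GRCm38 by HISAT2, per the paper's methods. Gene counts were made with HTSeq-count and FPKM with Cufflinks. The deposited counts were raw, and the deposited FPKM were normalized by the authors for length and depth. Tool versions and the strand setting of the counting are not given in the sources used here, and the labels and the paper name different extraction and library kits. The table's group means, fold changes, p-values and FDR hold the authors' own comparison and were not used. The paper gives 3 biological replicates for this experiment, and all 4 libraries per group were used. Symbols were taken from GENCODE M21 by identifier (22219 of 22274 matched).

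Counts were analysed with edgeR 4.0.16 in R 4.3.3 (filterByExpr, TMM, glmQLFit, glmQLFTest, no covariate, Benjamini-Hochberg adjustment over 13533 genes). The prior count of log2 CPM was 2. Alternatives were DESeq2 1.42.0, other scalings and filters, a replicate block, leaving out each library, and limma 3.58.1 on log2 FPKM with 1 or 0.1 added, where the mean was above 0.1. Scripts were tested on simulated data. The members, lists and tests were chosen with earlier results of these data known. Named were all members, in each list up to 4 called genes with the largest fold change and a mean above 1 CPM (all genes measured in family lists), Irf7, and the 5 genes most like Bcl2. Acta2, Tcf21, Col3a1, Postn, Pdgfra, Trp53, Stat3, Foxo1, Foxo3, Becn1 and the genes overlapping members were named beside these after their values were seen. Sequences came from the RefSeq promoter table. Members were matched by symbol. Some genes that the rule would name are not reported here.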

Additional observations from a re-analysis of the deposited data

Results flagged for a closer look

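In groups of 4 libraries, the gap between an extreme library and its nearest neighbour was divided by the range of the group and set against the 95% critical value of Dixon's test, in 70 groups of member values, ratios and sums. Chance alone marks about 1 group in 20, and 3 were marked. For Bcl2, GFP replicate 4 was above the other GFP libraries in CPM (37.0, gap over range 0.874) and in FPKM (5.16, gap over range 0.878), which are the same reads in 2 units. Without this library the log2 fold change of Bcl2 stayed called. The FPKM ratio of Bcl2l11 to Mcl1 was lower in GFP replicate 3 than in the other GFP libraries (0.0197, gap over range 0.893), and that library had the lowest Bcl2l11 count of all.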

How the results depend on the processing

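Over 16 alternatives between 7402 and 8211 genes were called, against 7969, and Bcl2, Bax, Bak1, Bid, Bcl2l11 and Pmaip1 stayed called in the same direction in all 16, with log2 fold changes of -0.87 to -0.64 for Bcl2, -0.29 to -0.23 for Bax, 0.27 to 0.34 for Bak1, 0.32 to 0.39 for Bid, 0.28 to 0.42 for Bcl2l11 and 0.44 to 0.54 for Pmaip1. Leaving out each library in turn gave 6 to 7 members called and 7506 to 7775 genes. Bbc3 lost its call in 4 of 16, with an adjusted p of 0.055 without GFP replicate 2 and without OEIRF7 replicate 2 (edgeR), and of 0.066 and 0.063 with limma on log2(FPKM + 1) and log2(FPKM + 0.1). Bad gained one in the 2 limma fits (0.21 and 0.22, adjusted p = 0.017). Mcl1 changed sign and was not past the threshold without scaling beyond library size (0.01) or with limma (0.05 in both). The cause was not tested. Of the genes called, 49.2% were higher in the main analysis, 53.8% without further scaling and 55.3% with limma on FPKM. The replicate block called 8211 genes and the same number of members, 7. Same-numbered libraries share only a number in the labels, and the correlations of their deviations from the group means were 0.0792, 0.0953, 0.138 and 0.104, each library correlating best with its own number. Depth limits Bcl2l11 and Bbc3 most, which rest on 102 to 247 counts per library.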
